A study of Homo sapiens with 6 samples.

Results

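The 5 loci described here carry the genes HNRNPA2B1, HNRNPH1, HNRNPC, HNRNPK and HNRNPU, which encode heterogeneous nuclear ribonucleoproteins (hnRNPs). They were taken as fixed minus-strand intervals of the genome build hg19, and every crosslink position inside an interval, on its strand, counted as a member position. HNRNPA2B1 is the interval 26229547 to 26240413 on chromosome 7, HNRNPH1 is 179041179 to 179061785 on chromosome 5, HNRNPC is 21677296 to 21737638 on chromosome 14, HNRNPK is 86582998 to 86595569 on chromosome 9, and HNRNPU is 245013602 to 245027844 on chromosome 1. They were compared with 174723 strand-specific windows of 10 kb that held any event elsewhere in the genome. The genes were selected on the QKI-5 crosslink counts of these libraries, known from earlier results, so their levels and the fits of QKI-5 over control are given as a description. The selection has no threshold.

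The libraries came from BEAS2B, an established human cell line from bronchial epithelium, irradiated with ultraviolet light at 150 mJ per cm2 so that proteins were crosslinked to RNA in contact with them. In individual-nucleotide crosslinking and immunoprecipitation (iCLIP) the reverse transcriptase tends to stop beside the crosslinked nucleotide, so each cDNA marks a single position. The labels give 3 libraries made with a self-made antibody against QKI-5, replicates 1 to 3, and 3 controls labelled as made without a CLIP antibody, also replicates 1 to 3. No genotype, drug or time point separates the groups, both come from the same line, and RNA was trimmed with RNase A at a high or a low dilution, without a record of which library had which. Separate cultures are not named in the labels for the replicates, so p-values reflect only how far these libraries differ, and part of that may be technical. The identity of the line was not checked against marker genes here, because no hg19 gene annotation was used.

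hnRNPs are abundant nuclear proteins that coat nascent transcripts and steer splicing, export, stability and localisation. Many of them regulate their own or each other's mRNA through alternative exons or alternative 3′ ends. QKI-5 is the nuclear isoform of Quaking, a KH-domain protein of the STAR family that regulates splicing and favours RNA with an ACUAA core and a nearby UAA.

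Total depth was 2143279 to 7283982 events in QKI-5 libraries and 29810 to 137926 in controls. Levels are given in EPM, events per 1000000 events of the library, and densities in EPM per kb of locus. One event is worth 7.25, 24.1 and 33.5 EPM in controls 1, 2 and 3, so control values are coarse. Events of the 5 loci together were 0.176%, 0.162% and 0.167% of the libraries of QKI-5 replicates 1, 2 and 3, and 0.175%, 0.121% and 0.158% of controls 1, 2 and 3. The controls rested on 241, 50 and 47 events. On the opposite strand of the loci there were 14 events over all 6 libraries, at HNRNPA2B1 (1), HNRNPH1 (6) and HNRNPU (7).

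By density, all 5 loci stood high among the 88410 windows with events in every QKI-5 library, whose median was 0.581 EPM per kb. They lay between percentile 99.12 (HNRNPC) and percentile 99.97 (HNRNPA2B1). The order was HNRNPA2B1, HNRNPK, HNRNPH1, HNRNPU and HNRNPC, and it held for each neighbouring pair in 3 of 3 QKI-5 libraries, with ranges that did not overlap. Between HNRNPK and HNRNPH1 the mean densities differed by only 1.17 times, and only 1 of 3 controls had that order. HNRNPA2B1 lay above HNRNPK in 3 of 3 controls. HNRNPH1 lay above HNRNPU, and HNRNPU above HNRNPC, in 2 of 3 controls each, so much of the order was also found without the antibody. Control densities were not ranked among windows. The order of HNRNPK and HNRNPH1 depended on counting repeat events at a position. With distinct positions in place of events, scaled to all positions of the library, HNRNPH1 lay above HNRNPK in every QKI-5 library. HNRNPH1 then held 12.9, 16.8 and 17.6 per kb in QKI-5 replicates 1, 2 and 3, and HNRNPK 10.2, 14.7 and 13.1. The other loci kept their places.

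HNRNPA2B1 encodes an A/B-type hnRNP with paired RNA recognition motifs that acts in splicing and RNA sorting. With the antibody its density was 45.6, 39.2 and 42.6 EPM per kb in replicates 1, 2 and 3, and without it 36.7, 28.8 and 46.3 EPM per kb in controls 1, 2 and 3. The groups overlapped, because control replicate 3 lay above every QKI-5 library. HNRNPK encodes a poly(C)-binding hnRNP that, like QKI, uses KH domains. It held 22.8, 22.7 and 20.2 EPM per kb with the antibody and 9.23, 5.75 and 21.3 EPM per kb in controls 1, 2 and 3. Here again control replicate 3 reached the QKI-5 range, while the other controls lay below it.

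HNRNPH1 encodes a protein that binds G-rich tracts. It held 19.7, 16.3 and 20.2 EPM per kb in QKI-5 libraries and 27.8, 9.36 and 16.3 EPM per kb in controls, so the controls spread to both sides. HNRNPU, also known as scaffold attachment factor A, held 9.03, 10.9 and 10.5 EPM per kb against 12.7, 16.9 and 4.71 EPM per kb in controls. HNRNPC, a U-tract binder that packages pre-mRNA, held 7.35, 6.96 and 6.49 EPM per kb against 7.93, 6.39 and 6.67 EPM per kb. In all 5 loci the groups overlapped.

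**Figure D1:**
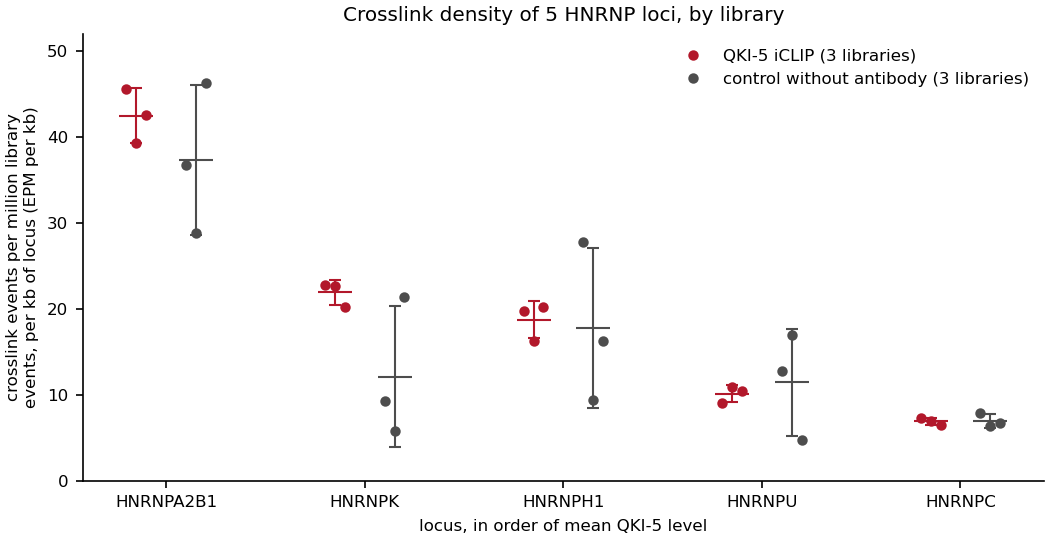
Crosslink density in EPM per kb (vertical axis) for the 5 loci (horizontal axis), with points for the 3 QKI-5 libraries (red) and 3 controls (grey), dashes for means and bars for SD. The groups overlap in every locus, and control replicate 3 at 21.3 EPM per kb sits among the QKI-5 points of HNRNPK.

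The loci were then fitted together with all other windows. HNRNPK had the highest log2 fold change of QKI-5 over control, 1.69 (SE 0.54, adjusted p = 0.0936, edgeR quasi-likelihood test), followed by HNRNPA2B1 at 0.88 (SE 0.53, adjusted p = 0.375). HNRNPC was at 0.59, HNRNPH1 at 0.49 and HNRNPU at 0.34, with adjusted p from 0.563 to 0.757. The median of the 5 was 0.59, beside 0.78 for all 29953 units tested. None of the 5 loci was called, where 0.711% of units were called higher and 0.107% lower at an adjusted p under 0.05. At an unadjusted p under 0.05 only HNRNPK passed. The DESeq2 Wald test called HNRNPK (log2 fold change 1.46, adjusted p = 0.00162), where it called 1.36% of units higher and 0.507% lower. Scaling by library totals moved the median of all units from 0.78 to 0.22 and turned HNRNPH1, HNRNPC and HNRNPU to -0.067, -0.048 and -0.27, so these had no stable direction. No locus was called in that fit, where 0.0768% of units were called higher and 0.194% lower. HNRNPK was then at 1.04 (adjusted p = 0.345). With distinct positions in place of events, HNRNPA2B1 came to 0.00, HNRNPK to 0.42 and HNRNPH1 to -0.033. Without control replicate 1, HNRNPA2B1 (1.76), HNRNPH1 (2.14) and HNRNPK (2.36) were called, in a fit that called 822 of 52134 units higher and 8 lower and whose median over all units was 6.69.

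The loci differed in where along their length the QKI-5 events fell. HNRNPA2B1 and HNRNPK had narrow peaks toward the 3′ end. HNRNPH1 was covered broadly over its 3′ part, and HNRNPU and HNRNPC along their whole length. The number of 100 nt bins needed to hold 50% of events was 2, 6 and 4 of 109 bins for HNRNPA2B1 in QKI-5 replicates 1, 2 and 3, and 3, 2 and 2 of 126 for HNRNPK. It was 13 to 17 of 207 for HNRNPH1, 23 to 25 of 143 for HNRNPU and 64 to 87 of 604 for HNRNPC. Profiles of events over 100 nt bins were correlated between QKI-5 libraries at Pearson's r of 0.94 to 0.98 for HNRNPK, 0.89 to 0.99 for HNRNPA2B1, 0.73 to 0.84 for HNRNPH1, 0.49 to 0.67 for HNRNPC and 0.47 to 0.61 for HNRNPU. These are across bins of 1 locus, which are not replicates, and the bins of a library share its depth. Between controls r was 0.35 at most over the 5 loci, and between a QKI-5 library and a control it reached 0.88 in HNRNPK and 0.55 at most elsewhere. The control profiles rest on 2 to 79 events per locus and library. That is too few to read a low r as a different profile.

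**Figure D2:**
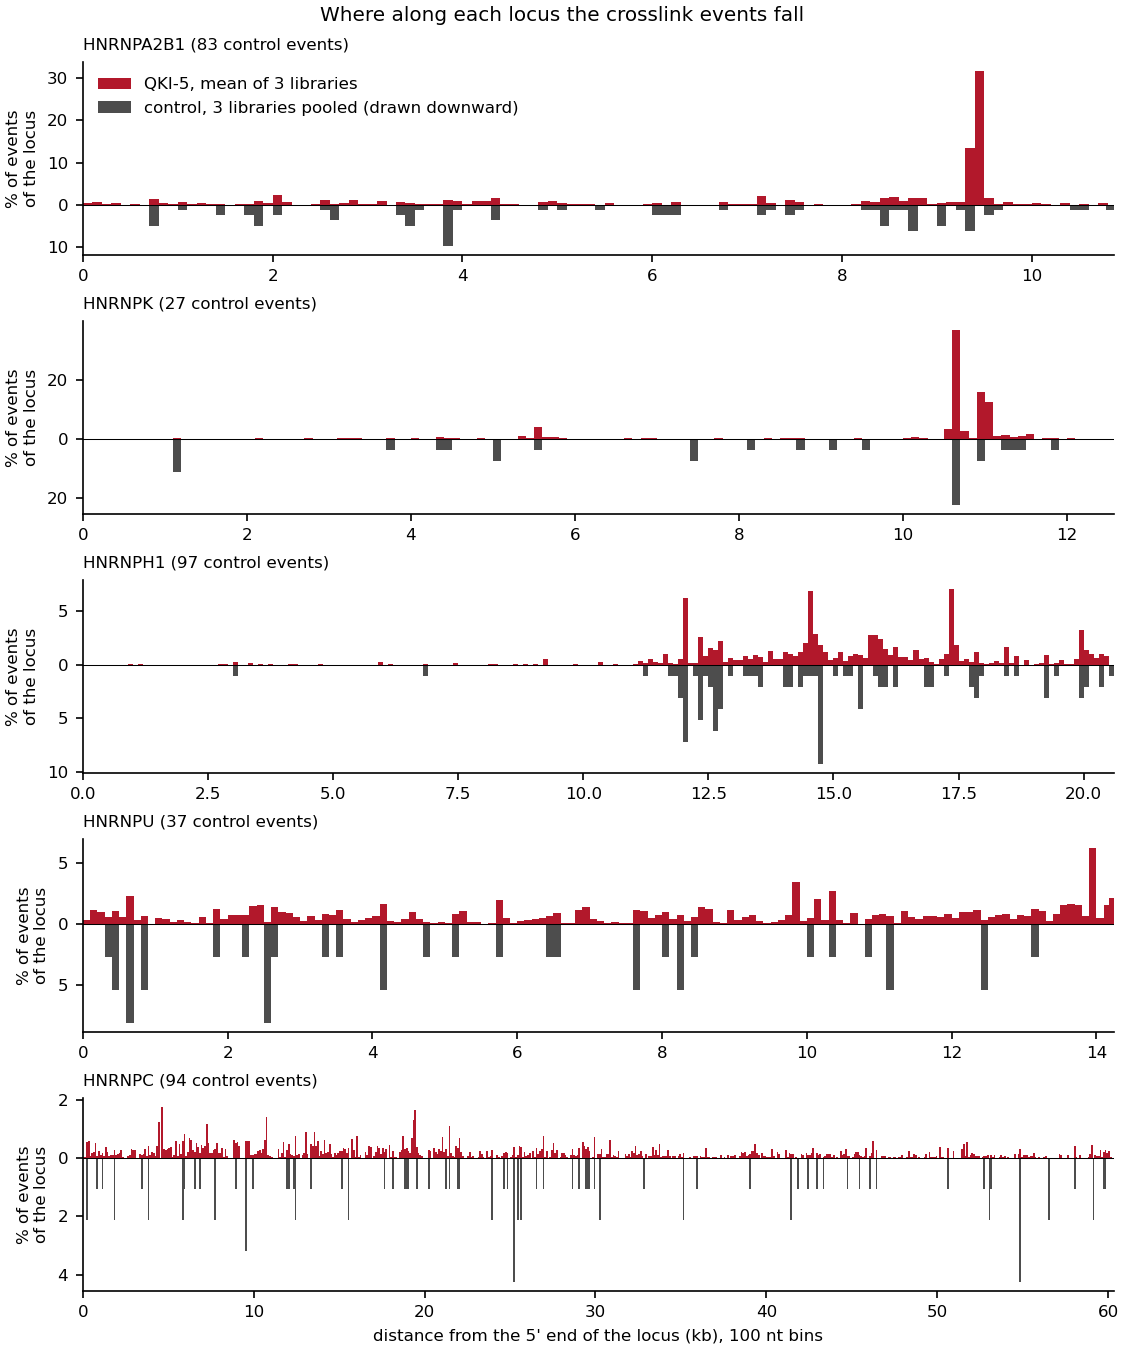
Share of each locus's events (%) in 100 nt bins against the distance from its 5′ end (kb), with the mean of 3 QKI-5 libraries drawn upward (red) and the 3 controls pooled drawn downward (grey), on axes of their own scale. HNRNPA2B1 and HNRNPK are led by peaks toward the 3′ end, while HNRNPC is low throughout, with no bin above a mean of 1.74% in QKI-5 libraries.

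In HNRNPA2B1 the fullest bin lay 9401 to 9500 nt from the 5′ end of the locus (chromosome 7, minus strand, 26230914 to 26231013). Its events numbered 1305, 204 and 489 in QKI-5 replicates 1, 2 and 3, at levels of 179, 95.2 and 169 EPM. No event of the 83 control events of the locus fell there, which allows a share of up to 3.61%, where the QKI-5 libraries had 36.2%, 22.3% and 36.6% of their events. Intervals and limits of this kind cover counting error only, since PCR copies may be among the events. The bin before it, 9301 to 9400 nt, ranked next with 71.1, 74.2 and 40.5 EPM. Control replicate 3 had 5 events there, all other controls none. Neighbouring 20 nt steps show both bins as the same peak, 120 nt wide (9361 to 9480 nt), with 246, 162 and 203 EPM in the QKI-5 libraries. Control replicate 3 had 168 EPM in it, from those 5 events, and controls 1 and 2 had none among 55 and 13 events of the locus.

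Outside both leading bins HNRNPA2B1 was no denser with the antibody than without it. The rest of the locus held 23.0, 24.1 and 23.7 EPM per kb in QKI-5 libraries and 37.4, 29.4 and 31.4 EPM per kb in controls. Every QKI-5 library lay below every control there, and the bins left out were those chosen for their high QKI-5 levels. The events of the peak were spread over many nucleotides, with 87 distinct positions in the fullest bin over the QKI-5 libraries. The position with the highest level common to all 3 libraries was nucleotide 9386 (26231028), with 64, 28 and 14 events, at most 3.06% of the events of the locus in any QKI-5 library. The third bin by level, 2001 to 2100 nt, was far lower, with 11.8, 9.33 and 11.4 EPM.

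In HNRNPK the fullest bin lay 10601 to 10700 nt from the 5′ end (chromosome 9, minus strand, 86584870 to 86584969). The QKI-5 libraries had 625, 237 and 306 events in it, which is 85.8, 111 and 106 EPM, and controls 1, 2 and 3 had 1, 1 and 4 events. The other leading bins were adjacent to each other, at 10901 to 11000 nt and 11001 to 11100 nt, with 57.0, 35.5 and 37.7 EPM and 45.7, 36.9 and 21.5 EPM. Together the 3 bins held 65.9%, 64.1% and 64.9% of the QKI-5 events of the locus. The controls had 6.25%, 33.3% and 75.0% there, from 16, 3 and 8 events. Control replicate 3 lay above and the other controls below the QKI-5 libraries, and the pooled control share was 29.6% (95% exact binomial interval 13.8 to 50.2). In 20 nt steps these bins formed a pair of peaks. The first was 100 nt wide and the second 140 nt wide (10941 to 11080 nt), with 95.1, 64.4 and 56.1 EPM in QKI-5 libraries.

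The leading single position of HNRNPK was nucleotide 10658 (86584912). It took 115, 18 and 78 events, 5.52%, 2.94% and 10.6% of the events of the locus, so it was more uneven between libraries than the bin around it. Positions with more than 1 event made up 45.0% to 56.5% of positions of HNRNPK in QKI-5 libraries, 36.8% to 59.0% in HNRNPA2B1, 37.4% to 53.5% in HNRNPH1, 27.3% to 42.0% in HNRNPC and 24.8% to 47.0% in HNRNPU. HNRNPK lay above HNRNPC in every library pair, while the other ranges overlapped. The sources used here do not say whether PCR copies were merged before counting, and their part in these shares was not tested.

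HNRNPH1 had almost no events in the first 50% of its interval. Both leading parts of 25% held 0.7% to 3.0% of the events each in QKI-5 libraries, and the third held 51.2%, 51.8% and 48.0%. The same was seen without the antibody. Control replicate 1 had 1.27% in each leading part and the other controls had no event there. The third part held 57.0%, 75.0% and 80.0% of the events in controls 1, 2 and 3. Its leading bins were 17301 to 17400 nt (42.4, 16.3 and 24.9 EPM), 14501 to 14600 nt (44.6, 18.2 and 18.0 EPM) and 12001 to 12100 nt (3.44%, 10.4% and 4.83% of the events of the locus). QKI-5 replicate 1 was highest in the former bins and replicate 2 in the latter. The bin from 17301 nt held no control event of 97, and that from 14501 nt held 1. In the bin from 12001 nt, by contrast, control replicate 2 had 3 of its 8 events and control replicate 1 had 4 of 79. That bin was therefore filled in both kinds of library.

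HNRNPU had events along its whole interval, but its strongest signal lay at the edge. The fullest bin inside was 13901 to 14000 nt, with 11.4, 7.93 and 6.92 EPM in QKI-5 libraries and no event of 37 in controls. Its shares of 8.86%, 5.09% and 4.64% compare with the 8.11% that a count of 0 allows by 3 events (9.49% by the exact binomial upper bound), so a difference was not detectable at this depth. A far larger peak of 60 nt began at the 3′ bound of the interval and ran to 57 nt past it (chromosome 1, minus strand, 245013545 to 245013604), with 677, 74 and 231 events, or 92.9, 34.5 and 80.0 EPM, in the QKI-5 libraries. Control replicate 3 had 3 events there (101 EPM) and the other controls none. The whole kb past the bound held 117, 58.3 and 117 EPM, against 129, 156 and 149 EPM in all 14.2 kb of the interval. The interval alone therefore leaves out much of the signal beside it. With bounds extended by 1 kb the density of HNRNPU rose from 10.1 ± 0.995 to 14.9 EPM per kb (SD, n = 3). Whether RNA of HNRNPU or of a neighbour lies there was not analysed here.

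A second case was HNRNPA2B1. From 1401 to 1500 nt past its 3′ bound (26228047 to 26228146) the QKI-5 libraries held 29.5, 32.2 and 27.3 EPM and the controls no event. The third kb past the bound fell to 3.90 ± 0.689 EPM (SD, n = 3). Past HNRNPH1, HNRNPC and HNRNPK no kb within 5 kb held more than a mean of 5.97 EPM in QKI-5 libraries.

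**Figure D3:**
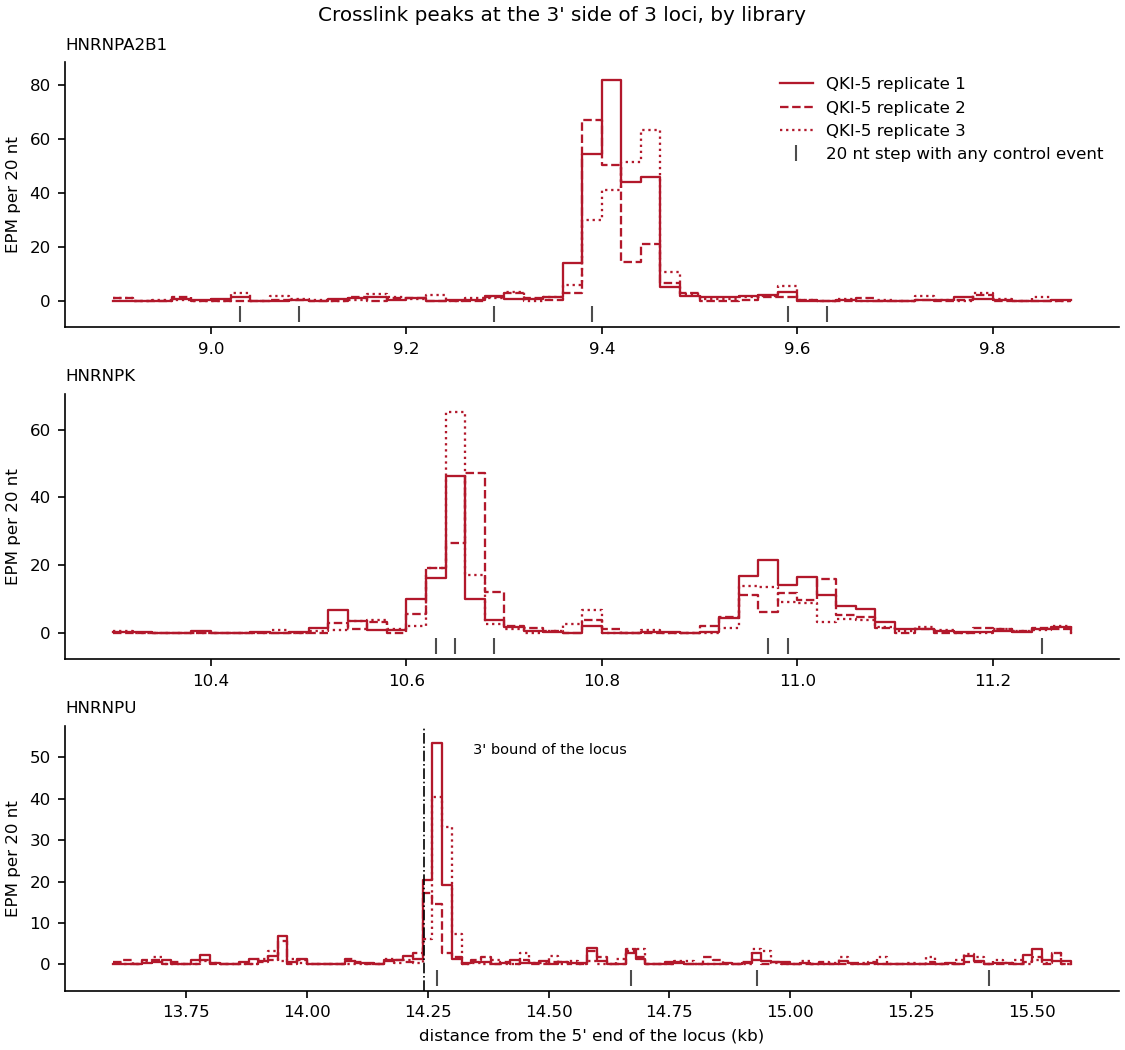
EPM per 20 nt (vertical axis) against distance from the 5′ end of the locus (kb) for the 3′ side of HNRNPA2B1, HNRNPK and HNRNPU, with a line for each QKI-5 library and grey ticks for steps with any control event. The peaks are 120 nt wide in HNRNPA2B1, 100 and 140 nt wide in HNRNPK, and 60 nt wide across the 3′ bound of HNRNPU. All 3 QKI-5 libraries have events in each peak, though their highest steps differ.

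In HNRNPC, the longest interval (60.3 kb), no bin stood out. The fullest were 4601 to 4700 nt (5.49, 5.60 and 10.4 EPM), 19401 to 19500 nt (8.10, 4.67 and 7.96 EPM) and 4401 to 4500 nt (4.67, 5.60 and 5.19 EPM). None of the 94 control events lay in them, which allows a share of up to 3.19% each, and the mean QKI-5 shares were 1.74%, 1.66% and 1.24%. At this control depth a difference in these bins was not detectable. The first 25% of the interval held 39.5%, 40.4% and 42.9% of QKI-5 events and the last 25% held 11.8%, 11.8% and 12.3%. HNRNPC thus had its QKI-5 events toward the 5′ end, while in HNRNPA2B1, HNRNPK and HNRNPU the last 25% was the fullest part in QKI-5 libraries. Controls 1, 2 and 3 had 31.8%, 12.5% and 33.3% of HNRNPC events in the first 25%, from 66, 16 and 12 events. In the last 25% they had 13.6%, 37.5% and 33.3%, so control replicate 1 also had more events toward the 5′ end.

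To measure concentration in libraries that had not chosen the bins, the 5 fullest 100 nt bins were chosen in 2 QKI-5 libraries and measured in the third and in the control of its number. They held 71.6%, 72.9% and 70.6% of the events of HNRNPK in QKI-5 replicates 1, 2 and 3, in 3.98% of its length. For HNRNPA2B1 the shares were 55.1%, 44.6% and 51.5%, against 9.09%, 23.1% and 33.3% in controls 1, 2 and 3, without overlap. HNRNPU had 13.7 ± 3.92% against 1.33 ± 2.31%, and HNRNPC 6.37 ± 1.22% against no control event (SD, n = 3), both without overlap. For HNRNPU these control shares rest on 25, 10 and 2 events of the locus, and the counts of 0 in controls 2 and 3 allow shares of up to 30% and 100%. For HNRNPC they rest on 66, 16 and 12 events, and allow up to 4.55%, 18.8% and 25%. A difference from the QKI-5 shares was thus not detectable in controls 2 and 3 of either locus. HNRNPK (controls 40.3 ± 31.8%) and HNRNPH1 (25.8 ± 4.08% against 19.2 ± 15.8%) did overlap. The two-sided exact permutation p was 0.1 for HNRNPA2B1, HNRNPU and HNRNPC, the smallest that 3 against 3 can give, and 0.4 for HNRNPK and HNRNPH1. Adjusted over the 5 loci (Benjamini-Hochberg) these were 0.167 and 0.4. With distinct positions HNRNPH1 turned to -3.72 percentage points. The excess in HNRNPA2B1 then fell from 28.6 to 10.5 points and its groups overlapped (exact permutation p = 0.2). Leaving out control replicate 3 moved the excess in HNRNPK from 31.4 to 48.8 points, and to 17.5 without control replicate 1, and distinct positions to 1.25. With 1 library left out, the excess in HNRNPH1 of 6.60 points ranged from 1.99 without control replicate 3 to 15.7 without control replicate 2. It was 0.308 points with 50 nt bins and 14.3 with 200 nt bins.

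The last 25% of the locus, a measure chosen after the profiles were seen, separated the groups at all 5 loci. QKI-5 libraries held 62.9 ± 4.68% of HNRNPA2B1 events there and controls 35.1 ± 4.64%. The values were 81.7 ± 3.10% against 48.6 ± 22.9% for HNRNPK and 46.7 ± 0.428% against 28.5 ± 10.7% for HNRNPH1 (SD, n = 3). In HNRNPU the QKI-5 share of 34.5 ± 3.58% lay 22.5 percentage points above the control mean, whose SD was 10.6. HNRNPC had the opposite order, 11.9 ± 0.300% against 28.2 ± 12.7%, with control replicate 1 at 13.6%, close to the QKI-5 libraries. Each difference had a two-sided exact permutation p of 0.1, also after adjustment over the 5 loci, again the smallest possible. Since the measure came from these same profiles, this p is a description and gives no support for a difference. Without its 3 leading bins HNRNPA2B1 had 33.8 ± 3.29% against 25.5 ± 13.7%, and the groups then overlapped. HNRNPK, HNRNPH1 and HNRNPU stayed apart without theirs, by 36.7, 15.3 and 20.1 percentage points. With distinct positions HNRNPK (11.3 points) and HNRNPC (-14.9 points) overlapped. Control replicates 2 and 3 held 3 and 8 events of HNRNPK and 10 and 2 of HNRNPU, so these control shares move by large steps.

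**Figure D4:**
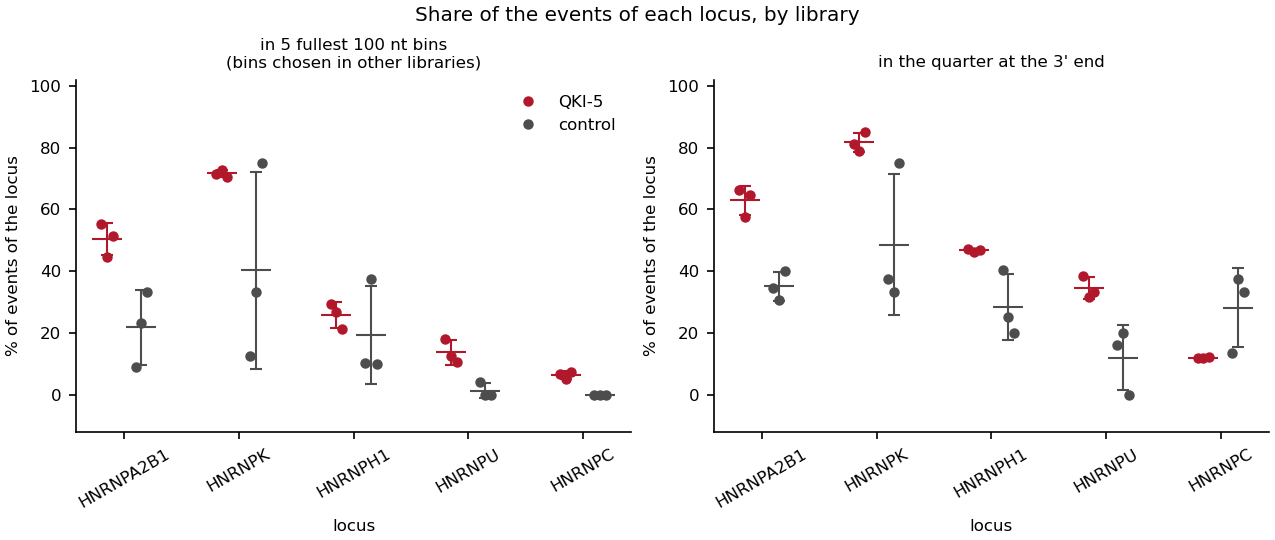
Share of each locus's events (%) in the 5 fullest 100 nt bins chosen in other libraries (left) and in the last 25% of the locus (right), with points for QKI-5 libraries (red) and controls (grey), dashes for means and bars for SD (n = 3 each). On the right the QKI-5 points lie above the controls at 4 loci and below them at HNRNPC.

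The fit was repeated over 1 kb bins of the whole genome to locate differences inside the loci. Of 123 bins that touch the loci, 44 passed the filter on low counts, and 5 of these (11.4%) were called higher and 0 lower, where 38.6% of all 6749 bins tested were called higher and 1.64% lower. The share among these bins was thus below the background. Their median log2 fold change was 0.86, beside 2.02 over all bins tested. With library totals 0 of the 44 was called, at a smallest adjusted p of 0.0662 and with 8 at an unadjusted p under 0.05, beside 0.859% of all bins called higher and 1.35% lower. DESeq2 called 9 higher, where it called 45.3% of all bins higher and 1.24% lower. The count of 5 became 24 without control replicate 1, where 4428 of 32337 bins tested genome-wide were called higher, and 10 without control replicate 3 (3492 of 39543). It became 2 without QKI-5 replicate 2 (77 of 223) and 0 without QKI-5 replicate 1 (18 of 212) or 3 (54 of 233). These fits tested different sets of bins, so their counts cannot be compared directly.

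The bin with the smallest adjusted p was 26230001 to 26231000 in HNRNPA2B1, which takes in part of its peak. Its levels were 137, 70.5 and 161 EPM with the antibody and 7.25, 48.2 and 0 EPM without it, and its log2 fold change was 3.92 (SE 0.94, adjusted p = 0.00225, edgeR). The other part of the peak fell in the neighbouring bin, the fullest of the locus, at 156 ± 25.3 against 115 ± 78.5 EPM, which was not called (adjusted p = 0.0891, edgeR). In HNRNPK the bin 86584001 to 86585000, with both peaks, held 210, 208 and 195 EPM against 29.0, 24.1 and 201 EPM (log2 fold change 2.74, SE 0.81, adjusted p = 0.0101, edgeR). Control replicate 3 lay within the QKI-5 range there, so the groups overlapped. With library totals no bin of HNRNPK was called (smallest adjusted p = 0.119, edgeR). The bin 245013001 to 245014000 crosses the 3′ bound of HNRNPU. It held 130, 69.5 and 115 EPM against 7.25, 0 and 101 EPM (log2 fold change 3.24, SE 0.88, adjusted p = 0.00576, edgeR), and 399 of its nucleotides lie inside the interval. The remaining called bins, in HNRNPK (86585001 to 86586000, 15.6 ± 3.03 EPM) and HNRNPC (21723001 to 21724000, 12.4 ± 1.81 EPM), had no control event and passed the filter only through the QKI-5 libraries. A count of 0 allows up to 21.8, 72.3 and 101 EPM in controls 1, 2 and 3, above those QKI-5 levels, so a difference in these bins was not detectable within any single control. The called bins of HNRNPA2B1 and HNRNPU likewise passed the filter only through the QKI-5 libraries. In each, control replicate 1 held 7.25 EPM, which is 1 event, and another control held none. Their adjusted p therefore ranks them among the bins tested and does not support a difference. In HNRNPH1 the smallest adjusted p of 9 bins tested was 0.0768 (edgeR), and the fullest bin, 179047001 to 179048000, held 74.4 ± 18.6 against 61.8 ± 35.4 EPM. The fullest bin of HNRNPC, 21718001 to 21719000, held 25.6 ± 3.59 against 32.8 ± 30.9 EPM.

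A bin was also chosen in QKI-5 replicate 1 alone and measured in replicates 2 and 3. It held 38.7% and 41.6% of events in HNRNPK, 22.3% and 36.6% in HNRNPA2B1, 5.43% and 4.33% in HNRNPH1, 5.09% and 4.64% in HNRNPU, and a mean of 1.18% in HNRNPC. The same measure over the 150 windows of 10 kb with at least 300 events in each QKI-5 library had a median of 18.8%. Among these windows HNRNPK lay at percentile 79.3 and HNRNPA2B1 at percentile 75.3, while HNRNPH1 and HNRNPU lay at percentile 6. The 5 intervals are longer than 10 kb, which lowers the share of a bin.

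Crosslinked nucleotides recurred between libraries to a different extent. In HNRNPK, 74 positions had events in all 3 QKI-5 libraries and carried 37.1%, 54.7% and 49.0% of the events in these libraries. In HNRNPA2B1 the 99 such positions carried 40.0%, 42.2% and 44.7%, and in HNRNPH1 the 94 such positions 16.2%, 28.0% and 19.8%. HNRNPC had 48 and HNRNPU 11, which carried at most 9.99% and 5.69% of a library's events. Such counts and shares depend on the density of events, and no number expected at equal density was computed. Likeness to all 3998 other units with events in every library was measured on total EPM over the 6 libraries, not divided by length. The nearest unit to HNRNPA2B1 was HNRNPC (Euclidean distance 0.59 of log2 EPM plus 1), and HNRNPC was also nearest to HNRNPH1 (1.12). HNRNPA2B1 is 10.9 kb long and HNRNPC 60.3 kb. Their mean QKI-5 densities were far apart, at 42.5 and 6.93 EPM per kb. The nearest unit to HNRNPK was the minus-strand window 75790001 to 75800000 on chromosome 6 (0.53), and to HNRNPU the plus-strand window 31190001 to 31200000 on chromosome 16 (0.62).

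Processed copies of hnRNP genes elsewhere in the genome share sequence with their mRNA. The sources used here do not say how a read that aligned to several places was treated, so counts in transcribed exon sequence are uncertain. Exons, introns and UTRs of the loci, the QKI recognition sequence around the peaks and the other hnRNP genes were not analysed here.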

How the data were processed

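Crosslink positions were measured by iCLIP in BEAS2B cells, in 3 QKI-5 and 3 control libraries. The deposited files give a whole-number count of crosslink events per nucleotide and strand, not normalized, with 1 library per file. The submitters' processing notes name the tools cutadapt and Bowtie and the build hg19, with no tool version. Coordinates count from 1.

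Events inside the 5 intervals were summed per library, and all other events over strand-specific 10 kb windows. These units entered a fit with edgeR 4.0.16 (R 4.3.3, limma 3.58.1, quasi-likelihood F test, TMM factors, filterByExpr, group as the only term, Benjamini-Hochberg over all units tested), and 1 kb bins entered another. SE is the log2 fold change over the root of F. DESeq2 1.42.0, other scalings, filters, bounds, distinct positions, a replicate block and leaving out each library were alternatives. The fit was tested on simulated data. Distances count from 1 at the 5′ end of a locus. Descriptions used Python 3.11.15, numpy 2.4.6, pandas 2.3.3, scipy 1.17.1 and matplotlib 3.10.9.

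Named items are, per locus, the fullest 1 kb bin, up to 3 called 1 kb bins, the 3 bins of 100 nt with the highest geometric mean over QKI-5 libraries, the 2 leading positions (of which the text gives those of the peak loci) and the nearest unit. The peaks in 20 nt steps join steps with a mean QKI-5 level of at least 5 EPM. They are given only for the 3′ side of HNRNPA2B1, HNRNPK and HNRNPU, and not for HNRNPH1 or HNRNPC. These peaks and the regions past the 3′ bounds were chosen after the values were seen. Members and lists were chosen with earlier results of these data known. No hg19 annotation or genome was used, so the planned shares by transcript region, the motif search, the family list and the marker lists were not run.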

Additional observations from a re-analysis of the deposited data

How the results depend on the processing

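Library totals turned the log2 fold changes of HNRNPH1 (-0.067), HNRNPC (-0.048) and HNRNPU (-0.27), and distinct positions that of HNRNPH1 (-0.033). DESeq2 called HNRNPK (1.46), 1 locus in place of 0. With 1 library left out, log2 fold changes ran from 0.17 to 1.76 for HNRNPA2B1, -0.14 to 2.14 for HNRNPH1, -0.10 to 1.62 for HNRNPC, 0.92 to 2.36 for HNRNPK and -0.43 to 1.31 for HNRNPU, and 0 to 3 loci were called higher. The highest value came without control replicate 1 each time, and the cause was not tested. No locus was called lower under any alternative run.

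Of 29953 units tested, 213 were called higher and 32 lower. The counts were 79 higher with DESeq2 size factors, 23 and 58 with library totals, 408 and 152 by DESeq2, 26 and 66 with distinct positions (20695 tested), 6 lower with no filter (174728 tested), and 28 to 822 and 8 to 94 with 1 library left out. Of 6749 bins of 1 kb tested genome-wide, 2607 and 111 were called. The counts were 3171 and 73 with DESeq2 size factors, 58 higher with library totals, 43033 and 2 with the filter of 10 events (312898 tested), 3055 and 84 by DESeq2, 585 higher with distinct positions (2313 tested), and 18 to 4428 and 4 to 39 with 1 library left out (212 to 39543 tested). Of the bins in the loci, 5 were called, but 10 with DESeq2 size factors, 0 with library totals, 65 with the filter of 10 events, 9 by DESeq2, 2 with distinct positions and 0 to 24 with 1 library left out. These counts are to be read against the genome-wide ones, since the bins tested differ between filters.

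Same-numbered libraries deviated from their group means with correlations of -0.0031, 0.102 and 0.075. Pairs of different numbers ranged from -0.106 to 0.0585, so replicates 2 and 3 had the highest values of all pairs. Whether libraries are paired by number cannot be settled from these small values. With the replicate block, 0 units and 0 bins were called in either direction by edgeR, 0 of them in the loci, at smallest adjusted p of 0.208 and 0.0711. Unadjusted p under 0.05 held for 2189 units and 1282 bins, and DESeq2 without the block called 560 units. HNRNPK was at 1.79 in that fit (adjusted p = 0.566, edgeR).

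Mean QKI-5 densities moved beyond 1 SD when the 20 fullest control windows were left out of the total (HNRNPA2B1 46.2, HNRNPC 7.56, HNRNPK 23.9 EPM per kb), with bounds extended by 1 kb (HNRNPA2B1 37.3, HNRNPK 19.1, HNRNPU 14.9) and with distinct positions, on that scale (HNRNPA2B1 26.7, HNRNPH1 15.8, HNRNPK 12.7). Distinct positions thus placed HNRNPH1 above HNRNPK, the reverse of their order by events. The held-out share of HNRNPH1 turned to -3.72 percentage points with distinct positions. The other held-out shares and all 5 differences in the last 25% kept their direction under every alternative run. In some of these runs, groups that had been apart overlapped. Control depth, at 27 to 97 events per locus over all controls, limits every comparison with controls.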
